A study of Mus musculus with 13 samples.

Results

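The 9 genes described here build, load and regulate MHC class I molecules: the heavy-chain genes H2-K1, H2-D1, H2-Q7 and H2-T23, the light-chain gene B2m, the peptide loading genes Tap1, Tap2 and Tapbp, and the regulator Nlrc5. They were listed by name, among the 35906 genes summed over the 13 libraries, and all 9 passed the filter on low counts in every comparison. Each library came from 1 Lm54 TCR-transgenic, Rag1-/- mouse on the C57BL/6J background, so that in all groups the T cells carry 1 transgenic receptor, and held mature CD4 single-positive (CD4SP) thymocytes of the M2 stage. Unstimulated cells came from 5 CtslΔTEC mice, which lack cathepsin L in thymic epithelial cells because Foxn1-cre deletes a floxed Ctsl allele there, and from 4 mice labelled Ctsl fl/fl (WT). Stimulated cells, from 2 CtslΔTEC and 2 Ctsl fl/fl mice, had been kept for 4 h with plate-bound LLO:I-Ab monomer at 1 µg/ml, which the Lm54 receptor recognises, and soluble anti-CD28 at 250 ng/ml. The mice were adults of both sexes.

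M2 cells were sorted as CD69-MHCI+ cells in every group. Surface MHC class I was therefore part of the gate, and cells with little of it were left out before sequencing. No earlier CD4SP stage is among the libraries, so a change of these genes with maturation was not analysed here. In bulk RNA, fewer cells of a type and less RNA per cell cannot be told apart.

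An MHC class I molecule is a heavy chain held together with β2-microglobulin and a short peptide. The peptide is cut from cytosolic protein by the proteasome, carried into the endoplasmic reticulum by the TAP transporter and fitted to the heavy chain with the help of tapasin. NLRC5 is a transactivator that binds no DNA by itself and acts through RFX, CREB/ATF and NF-Y proteins on class I promoters, which often also hold sites for NF-κB and interferon regulatory factors. In the thymus, surface class I is low on CD4+CD8+ double-positive (DP) cells and rises as single-positive cells mature.

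The promoters are shown because class I promoters are known for a common run of elements, and 3 of the heavy-chain genes hold it whole. The sequences are from RefSeq on build GRCm38.p6, read 5′ to 3′ on the strand of the gene, and reach from the first to the last match upstream of the transcript start with 5 bases on either side where the promoter window allowed it. Promoters were given for 7 of the 9 members. Capitals mark matches, on either strand, to 4 motifs: kappa-B, found here as GGGGATTCCC and searched with the fourth and the fifth base left free, the interferon regulatory factor core AANNGAAA, the CRE-like TGACG of the X2 box, and CCAAT. The matches do not overlap. For H2-K1 the more downstream of 2 annotated starts was used. The motifs were picked from general knowledge of class I promoters.
H2-K1, chr17:34000330-34000463, minus strand: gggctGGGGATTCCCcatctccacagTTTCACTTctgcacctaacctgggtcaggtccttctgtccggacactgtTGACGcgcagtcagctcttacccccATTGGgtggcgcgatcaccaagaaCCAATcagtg
H2-D1, chr17:35262918-35263050, plus strand: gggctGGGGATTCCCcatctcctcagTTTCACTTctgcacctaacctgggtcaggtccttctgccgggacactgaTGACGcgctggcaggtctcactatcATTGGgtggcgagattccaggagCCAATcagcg
H2-Q7, chr17:35439017-35439148, plus strand: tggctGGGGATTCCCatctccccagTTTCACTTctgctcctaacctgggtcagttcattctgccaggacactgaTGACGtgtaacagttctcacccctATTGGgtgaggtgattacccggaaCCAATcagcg
H2-T23, chr17:36032744-36032830, minus strand: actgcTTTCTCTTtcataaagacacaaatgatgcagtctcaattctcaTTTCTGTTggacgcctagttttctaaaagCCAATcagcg
B2m, chr2:122147545-122147643, plus strand: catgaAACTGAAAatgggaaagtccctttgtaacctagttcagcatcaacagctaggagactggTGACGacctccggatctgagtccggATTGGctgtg
Tap1, chr17:34187329-34187479, plus strand: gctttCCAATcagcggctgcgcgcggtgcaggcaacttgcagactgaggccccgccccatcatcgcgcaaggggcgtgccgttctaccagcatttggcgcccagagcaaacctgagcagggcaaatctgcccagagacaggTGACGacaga

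H2-K1, H2-D1 and H2-Q7 each held all 4 motifs, in the same order and spacing to within a few bases. Of 32851 mouse promoters of the same 300 bases, 17 (0.0517%) held all 4, and these belong to 16 genes that also include the class Ib gene H2-Q4 and the class II gene H2-Aa. Single motifs were far more frequent, with kappa-B in 1.75% of promoters, the interferon regulatory factor core in 23.9%, TGACG in 20.8% and CCAAT in 37.4%. In H2-T23 neither kappa-B nor TGACG matched, in B2m kappa-B did not match, Tap1 held TGACG and CCAAT, and the Tapbp promoter matched CCAAT alone. A match is a run of letters in this window and says nothing about what binds there.

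**Figure D1:**
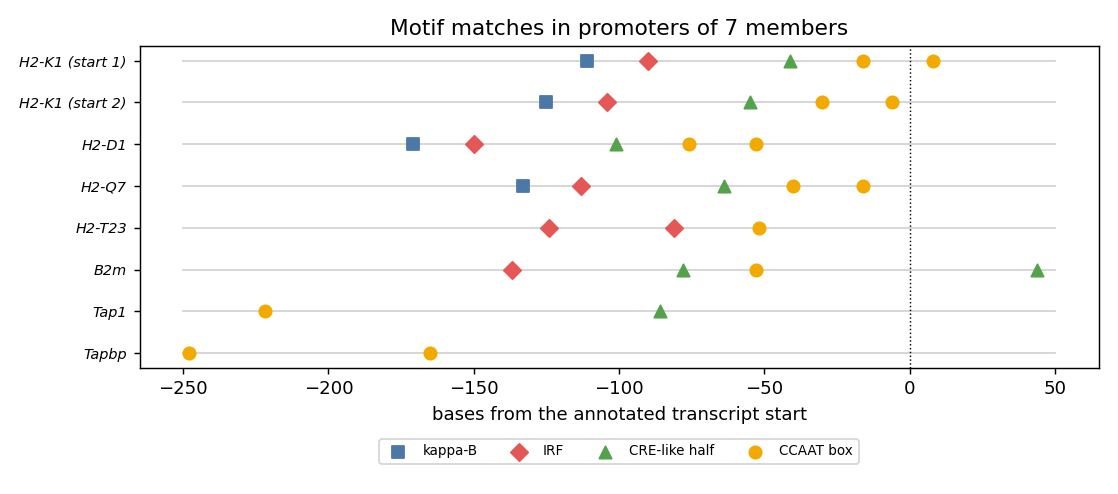
Position of each motif match in bases from the annotated transcript start (0, dotted line) for the 7 members with a RefSeq promoter, with 2 annotated starts for H2-K1. H2-K1, H2-D1 and H2-Q7 show the same 5 symbols in the same order, whereas the other promoters hold 2 to 4.

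In the annotation of build GRCm38, 7 of the members lie in or near the mouse MHC on chromosome 17, Tap1 (34187553 to 34197225) and Tap2 (34203527 to 34216321) next to each other. B2m lies on chromosome 2 (122147686 to 122153083) and Nlrc5 on chromosome 8 (94434356 to 94527272). The class I genes are copies of one another, which bears on every value below, because kallisto shares reads between transcripts through words of 31 bases. Of these words in the leading coding transcript, 23.4% were also found in transcripts of other genes for H2-K1, 27.7% for H2-D1, 52.6% for H2-Q7 (H2-Q5 and H2-Q6 first) and 49.3% for H2-T23. B2m shared none, Nlrc5 0.172%, Tap1 7.73%, Tapbp 14.9% and Tap2 15.5%. How reads were split between H2-Q7 and its neighbours is therefore uncertain, and H2-Q8 and H2-Q9 were not analysed here.

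The libraries held 25692380 to 39127833 estimated counts in unstimulated cells and 8085463 to 27184520 in stimulated cells, with the lowest total in Ctsl fl/fl mouse 5. TPM is transcript abundance scaled to transcript length and to a fixed library total, and CPM is counts scaled to the library total after TMM normalisation. Cd4 stood at 327 to 604 TPM in all 13 libraries, and 10 CD4 T lineage markers summed to 9943 to 28544 TPM. Of these 10, none was higher in unstimulated CtslΔTEC cells and Cd5 (log2 fold change -1.07), Cd6 (-0.73) and Zbtb7b (-0.48) were lower (adjusted p below 0.1, edgeR). CD8 lineage markers summed to 182 to 225 TPM in unstimulated CtslΔTEC and 76.4 to 98.5 TPM in unstimulated Ctsl fl/fl cells. B cell markers summed to at most 2.25 TPM, thymic epithelial markers to at most 32.1 TPM and myeloid and dendritic markers to at most 9.77 TPM. Cd14, Clec9a and Siglech were under 10 counts in every library. Erythroid markers, mainly globins, summed to 159.7 to 771 TPM in unstimulated and 9.67 to 63.1 TPM in stimulated libraries. Ctsl does not check the labels, since it is deleted in epithelial cells and these are thymocytes. It was detected in both genotypes, at 12.6 ± 2.48 TPM (SD, n = 5) in unstimulated CtslΔTEC and 6.74 ± 1.64 TPM (SD, n = 4) in Ctsl fl/fl cells, and Foxn1 did not exceed 0.0338 TPM in any library. The sum of 4 Y-linked genes lay at 171 to 242 TPM in all 5 unstimulated CtslΔTEC libraries and in 1 of 4 Ctsl fl/fl libraries (mouse 3), against at most 3.02 TPM in the other 3. Among stimulated mice it was high in 1 of 2 of each genotype.

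Levels between genes were compared in TPM, which is per length. In unstimulated Ctsl fl/fl cells the order ran from H2-K1 (1346 ± 199.6 TPM, SD, n = 4) and B2m (1309 ± 103 TPM) through H2-D1 (725 ± 88.9 TPM) and H2-T23 (394 ± 32.7 TPM) to Tap2, Tapbp and Tap1 (181, 153 and 100.3 TPM), with Nlrc5 (47.9 ± 2.72 TPM) and H2-Q7 (31.8 ± 5.53 TPM) lowest. H2-K1 and B2m were not separated in this group, H2-K1 being higher in 2 of 4 mice, while the ranges of all other neighbours were apart. In unstimulated CtslΔTEC cells H2-Q7 lay above Nlrc5 in the mean, but in 3 of 5 mice only, and the ranges of Tap2, Tapbp and Tap1 met. H2-K1 exceeded H2-D1 in each of the 13 libraries, by 1.85 ± 0.0709 times in unstimulated Ctsl fl/fl and 1.91 ± 0.0771 times in CtslΔTEC cells.

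This order and these ratios turn on which transcripts are summed. On transcripts annotated as protein-coding, B2m (1192 to 1402 TPM in unstimulated Ctsl fl/fl and 1370 to 1952 TPM in CtslΔTEC cells) lay above H2-K1 (785 to 1006 and 1054 to 1260 TPM) in all 9 unstimulated mice. H2-K1 was then at 923 and H2-D1 at 701 TPM in the mean of unstimulated Ctsl fl/fl cells, with ranges that met, and at 1181 and 924 TPM in CtslΔTEC cells. In Ctsl fl/fl cells 15.4% of H2-K1 counts and 0.840% of H2-D1 counts were on retained-intron transcripts. Tap2 went from highest to lowest of the 3 loading genes, with protein-coding means of 137 TPM for Tapbp, 70.9 TPM for Tap1 and 47.9 TPM for Tap2, and Nlrc5 (19.8 to 22.1 TPM) lay within the range of H2-Q7 (15.3 to 26.8 TPM). The labels name polyA RNA and the study's methods rRNA depletion, and the bearing of this on the retained-intron shares given here, those of H2-Q7 and Tap2 among them, was not tested.

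**Figure D2:**
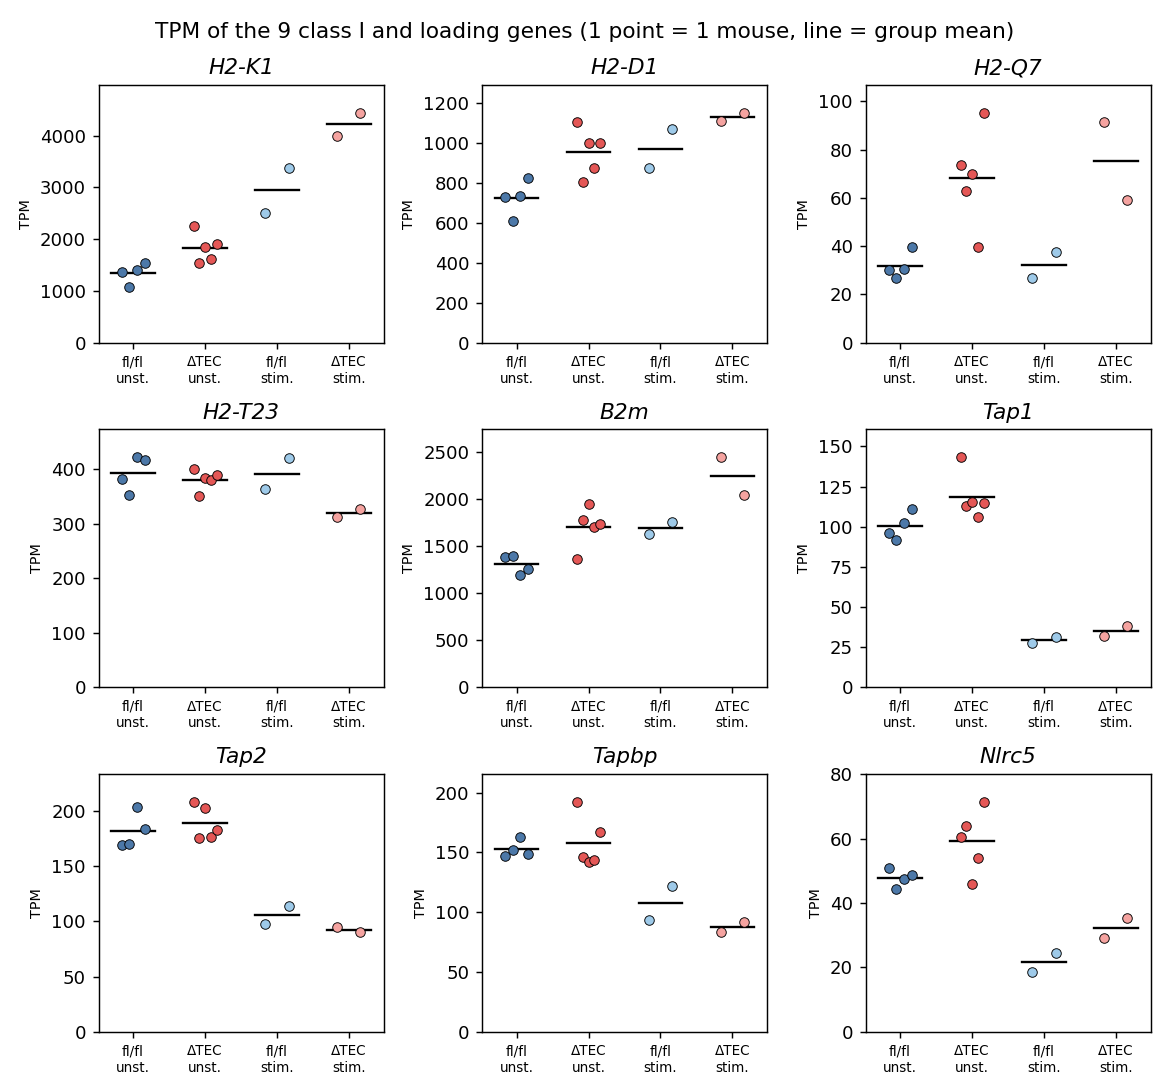
TPM (linear axes from 0) of the 9 genes in each mouse, by group: Ctsl fl/fl and CtslΔTEC, unstimulated (unst., 4 and 5 mice) and stimulated (stim., 2 and 2 mice), with a line at the group mean. H2-K1, H2-D1 and B2m are higher after stimulation, Tap1, Tap2, Tapbp and Nlrc5 are lower, and H2-Q7 differs by genotype in both conditions.

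The first comparison asked whether M2 cells selected without cathepsin L in the thymic epithelium differ in class I RNA. In unstimulated cells 5 of the 9 members were higher in CtslΔTEC (H2-K1, H2-D1, H2-Q7, B2m and Tap1) and none was lower at an adjusted p below 0.1, where 14.8% of all 13152 genes tested passed, 6.42% as higher and 8.36% as lower (edgeR quasi-likelihood test, Benjamini-Hochberg). Apart from H2-Q7, which was 2.08 times higher, the differences were small, between 1.16 and 1.27 times. The median log2 fold change of the 9 genes was 0.23, against 0.01 over all genes. In log2 CPM scaled over the 9 unstimulated libraries the values of H2-Q7, B2m and Tap1 did not overlap between the genotypes, all 3 higher in CtslΔTEC, which held for 13.7% of all genes (6% higher and 7.7% lower). Scaled over all 13 libraries, B2m overlapped, with 633 CPM in CtslΔTEC mouse 1 and 634 CPM in Ctsl fl/fl mouse 2.

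The classical heavy chains H2-K1 and H2-D1 present peptides to CD8 T cells. H2-K1 measured 1366, 1068, 1409 and 1541 TPM in Ctsl fl/fl mice 1 to 4 and 2249, 1542, 1846, 1614 and 1907 TPM in CtslΔTEC mice 1 to 5. All CtslΔTEC mice were above all Ctsl fl/fl mice in TPM, the closest pair less than 1 TPM apart, whereas in CPM the ranges overlapped. H2-K1 was 1.27 times higher in CtslΔTEC (log2 fold change 0.35, standard error 0.10, adjusted p = 0.0467, edgeR). H2-D1 measured 728, 610.3, 735 and 827 TPM in Ctsl fl/fl mice 1 to 4 and 1106, 805, 998, 877 and 999 TPM in CtslΔTEC mice 1 to 5. Here the highest Ctsl fl/fl mouse lay above the lowest CtslΔTEC mouse. H2-D1 differed by the same factor (log2 fold change 0.35, standard error 0.11, adjusted p = 0.0633, edgeR).

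H2-Q7 encodes Qa-2, a class Ib molecule found on mature T cells, and H2-T23 encodes Qa-1, which carries leader peptides of other class I chains to CD94-NKG2 receptors. H2-Q7 measured 30.3, 26.8, 30.4 and 39.7 TPM in Ctsl fl/fl mice 1 to 4, and 73.4, 62.8, 69.9, 39.6 and 95.4 TPM in CtslΔTEC mice 1 to 5. CtslΔTEC mouse 4 was at the level of Ctsl fl/fl mouse 4 and the other 4 CtslΔTEC mice were well above. H2-Q7 had the largest difference of the 9 genes (log2 fold change 1.06, standard error 0.20, adjusted p = 0.00532, edgeR). H2-T23 went the other way without passing, at 394 ± 32.7 TPM in Ctsl fl/fl and 381 ± 18.7 TPM in CtslΔTEC cells, with a 95% interval of the log2 difference from -0.23 to 0.08 (adjusted p = 0.576, edgeR).

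For H2-Q7, 66.9% of counts in Ctsl fl/fl and 69.1% in CtslΔTEC cells were placed on transcripts annotated as retained introns, a share for which no genotype difference was detected (two-sided exact permutation test, p = 0.508, 0.758 after adjustment over 15 such ratios and shares). With protein-coding transcripts alone the difference was about as large (log2 fold change 0.98, standard error 0.27, adjusted p = 0.0394, edgeR). Summed over the 8 H2-Q genes, TPM ranged from 142 to 199.6 in Ctsl fl/fl and from 213 to 323 in CtslΔTEC cells without overlap (exact permutation p = 0.0159, 0.179 after the same adjustment), whereas the 5 H2-T genes summed to 530.1 to 611 and 546 to 613 TPM. H2-Q4 carried most of the H2-Q signal, with 115 ± 17.8 TPM in Ctsl fl/fl and 182 ± 25.6 TPM in CtslΔTEC cells.

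β2-microglobulin pairs with every heavy chain named here. B2m measured 1387, 1402, 1192 and 1254 TPM in Ctsl fl/fl mice 1 to 4, and 1370, 1776, 1952, 1708 and 1736 TPM in CtslΔTEC mice 1 to 5. CtslΔTEC mouse 1 lay among the Ctsl fl/fl mice in TPM. B2m was 1.27 times higher in CtslΔTEC (log2 fold change 0.34, standard error 0.09, adjusted p = 0.0243, edgeR). Relative to the sum of H2-K1 and H2-D1 it stood at 0.627 ± 0.135 in CtslΔTEC and 0.646 ± 0.139 in Ctsl fl/fl cells, so that light and heavy chain RNA differed by a similar factor (exact permutation p = 0.833).

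TAP1 and TAP2 form the peptide transporter and tapasin, the product of Tapbp, bridges it to the heavy chain. Tap1 measured 95.8, 91.9, 102 and 111 TPM in Ctsl fl/fl mice 1 to 4 and 143, 113, 116, 105.997 and 115 TPM in CtslΔTEC mice 1 to 5, with overlap in TPM but not in CPM. It was 1.16 times higher in CtslΔTEC (log2 fold change 0.22, standard error 0.07, adjusted p = 0.0930, edgeR), a call lost with protein-coding transcripts alone (adjusted p = 0.277), without the filter on low counts (0.169), with effective lengths as offsets (0.307) and in the model of all 13 libraries (0.111). The other members of the complex did not pass: the 95% interval of the log2 difference was -0.17 to 0.21 for Tap2 and -0.23 to 0.18 for Tapbp. Most Tap2 counts, 62.7% in Ctsl fl/fl and 64.7% in CtslΔTEC cells, were assigned to a retained-intron transcript, so its protein-coding level was 47.9 ± 10.7 and 44.7 ± 4.42 TPM. Nlrc5 measured 50.9, 44.4, 47.6 and 48.7 TPM in Ctsl fl/fl mice 1 to 4 and 60.4, 64.0, 45.9, 54.1 and 71.5 TPM in CtslΔTEC mice 1 to 5. In 4 of 5 CtslΔTEC mice the regulator was above every Ctsl fl/fl mouse, but the difference missed the threshold (log2 fold change 0.23, standard error 0.09, adjusted p = 0.160, edgeR).

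**Figure D3:**
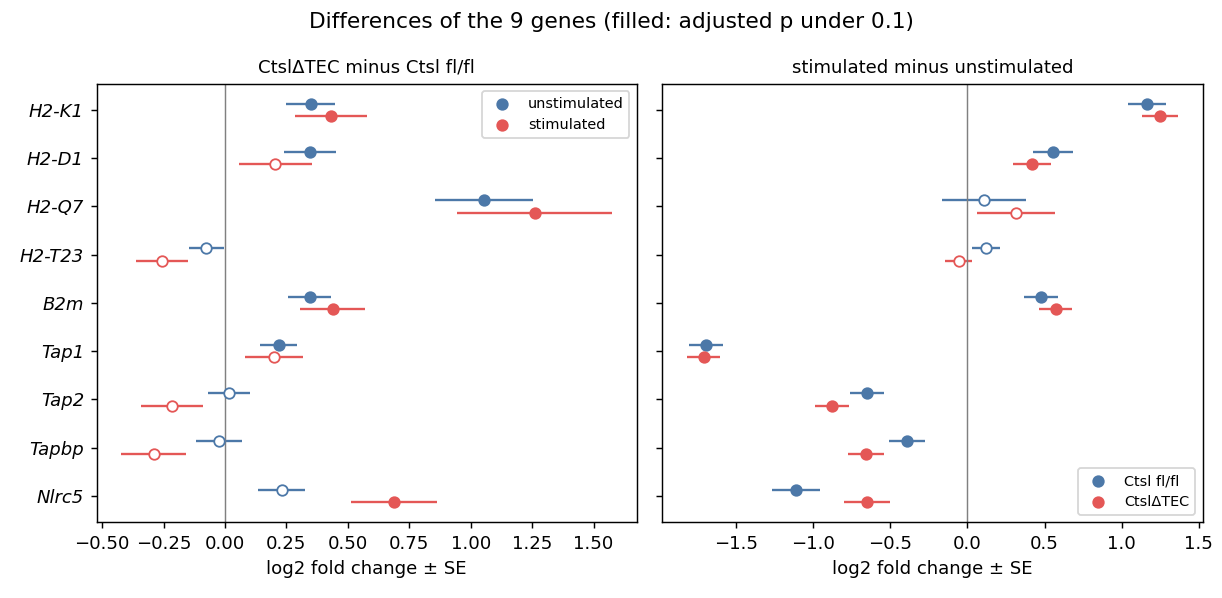
Log2 fold changes with standard errors from edgeR, CtslΔTEC minus Ctsl fl/fl in unstimulated and stimulated cells (left) and stimulated minus unstimulated in each genotype (right), filled where the adjusted p was below 0.1. H2-Q7 has the largest genotype difference (1.06 and 1.26), and on stimulation H2-K1 lies at 1.17 and 1.25 while Tap1 lies at -1.69 and -1.71.

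A two-sided exact permutation test of log2 CPM over all splits of the 9 mice, with a smallest possible p of 0.00794, gave p = 0.0159 for H2-K1, H2-Q7, B2m and Tap1 (0.0357 after adjustment over the 9 genes) and p = 0.0397 for H2-D1 (0.0714). Several properties of the mice moved with the genotype. DP markers summed to 276 to 357 TPM in CtslΔTEC and 97.0 to 127 TPM in Ctsl fl/fl cells, 6 of the 7 tested being higher, led by Cd8a (log2 fold change 2.75) and Cd8b1 (2.22), with Rag2 under 10 counts in each Ctsl fl/fl library. Of 14 genes known to be high late in CD4SP maturation, 10 were lower in CtslΔTEC and none higher, among them Foxo1 (log2 fold change -0.46) and Il7r (-1.08). Of 12 genes known to be high early, 3 were higher and 3 lower (median -0.10), with Ccr9 at 0.96, Bcl2l11 at 0.53, Itm2a at -0.91 and Ccr4 at -1.42. The part of these lists in the class I values was not tested.

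With the Y-linked level as a covariate none of the 9 genes passed (0 by edgeR, and 429 of all genes in place of 1943), with log2 estimates and standard errors of 0.34 and 0.18 for H2-K1, 0.36 and 0.19 for H2-D1, 1.17 and 0.37 for H2-Q7, 0.52 and 0.14 for B2m, and 0.17 and 0.13 for Tap1. The part of the Y-linked difference in these values was not tested further. Ctsl fl/fl mouse 3, the one with Y-linked transcripts, lay below all 5 CtslΔTEC mice in H2-K1, H2-D1, H2-Q7, B2m and Tap1, with 1409, 735, 30.4, 1192 and 102 TPM. It lay above all of them in H2-T23 (423 against at most 401 TPM) and within their range in Tap2, Tapbp and Nlrc5. Y-linked level and genotype went together in these mice, and 1 such mouse cannot tell them apart. In mice of the second of 2 dates in the deposited names (3 of each genotype) 6 members passed, and with date as a factor also 6. H2-Q7 and B2m passed whichever mouse was left out. H2-K1 was lost without CtslΔTEC mouse 5 or Ctsl fl/fl mouse 1 or 2 (adjusted p up to 0.110), H2-D1 without CtslΔTEC mouse 3 or 5 or Ctsl fl/fl mouse 1, 2 or 3 (up to 0.153), and Tap1 without CtslΔTEC mouse 1, 2, 3 or 5 or Ctsl fl/fl mouse 1, 2 or 3 (up to 0.213, all edgeR). The count of members then ranged from 2 to 5, with 2 left without CtslΔTEC mouse 5, Ctsl fl/fl mouse 1 or Ctsl fl/fl mouse 2 and 3 left without Ctsl fl/fl mouse 3. Nlrc5 passed without CtslΔTEC mouse 3 (adjusted p = 0.0727, edgeR).

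After stimulation the genotypes were compared in 2 mice each. Here 4 members were higher in CtslΔTEC (H2-K1, H2-Q7, B2m and Nlrc5) and none lower, where 13.3% of the 14241 genes tested passed, 2.77% as higher and 10.6% as lower. That background was 1898 genes, and 945, 1254 or 966 without stimulated CtslΔTEC mouse 6, CtslΔTEC mouse 7 or Ctsl fl/fl mouse 5. H2-Q7 measured 26.9 and 37.6 TPM in Ctsl fl/fl mice 5 and 6, and 91.3 and 59.1 TPM in CtslΔTEC mice 6 and 7. The genotypes were well apart (log2 fold change 1.26, standard error 0.32, adjusted p = 0.0217, edgeR). Nlrc5 measured 18.7 and 24.4 TPM in Ctsl fl/fl and 29.1 and 35.5 TPM in CtslΔTEC mice. It was 1.61 times higher in CtslΔTEC (adjusted p = 0.0224, edgeR).

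H2-K1 measured 2510.0 and 3382 TPM in stimulated Ctsl fl/fl and 3990.2 and 4443 TPM in stimulated CtslΔTEC mice, a ratio of 1.35 in the fit (adjusted p = 0.0843, edgeR). B2m stood at 1628 and 1755 TPM against 2451 and 2044 TPM, also 1.35 times (adjusted p = 0.0506, edgeR). For all 9 members the 2 CtslΔTEC mice lay to one side of the 2 Ctsl fl/fl mice, above for 6 and below for H2-T23, Tap2 and Tapbp, but so did 49.8% of all genes (19.6% above and 30.2% below). H2-T23 had a log2 fold change of -0.26 (95% interval -0.48 to -0.03, adjusted p = 0.162), Tapbp of -0.29 (-0.57 to -0.01, adjusted p = 0.210) and Tap2 of -0.21 (-0.48 to 0.06, adjusted p = 0.346, edgeR). H2-D1 and Tap1, which passed before stimulation, had log2 fold changes of 0.21 (-0.11 to 0.53) and 0.20 (-0.06 to 0.46).

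With effective lengths as offsets neither H2-K1 (log2 fold change 0.49, adjusted p = 0.117) nor B2m (0.37, adjusted p = 0.149) passed, and without the filter on low counts H2-K1 did not (0.42, adjusted p = 0.104, edgeR). H2-T23 passed as lower with effective lengths (log2 fold change -0.33, adjusted p = 0.0749) and with protein-coding transcripts alone (-0.38, adjusted p = 0.0797, edgeR). In the same mice DP markers summed to 62.7 to 66.1 TPM in CtslΔTEC and 26.7 to 33.4 TPM in Ctsl fl/fl cells, with 3 of 8 higher (Cd8a, 2.59, Cd8b1, 1.90 and Arpp21, 1.15) and 1 lower (Cd1d1, -0.65). Of the 14 late maturation genes 12 were lower and none higher (median -0.97). Ptcra and Rag2 were under 10 counts in each stimulated library, and the part of these markers in the class I values was not tested.

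The 4 calls rest on few mice. No member passed without Ctsl fl/fl mouse 5 (0 by edgeR), the library with the fewest counts, 1 (Nlrc5) passed without CtslΔTEC mouse 6 and 2 (H2-Q7 and B2m) without CtslΔTEC mouse 7. B2m was also lost without Ctsl fl/fl mouse 6 (adjusted p = 0.125) and H2-K1 without unstimulated Ctsl fl/fl mouse 1 or 3 (up to 0.107, edgeR). Fitted on the 4 stimulated libraries alone, 2 passed. The interaction, which asks whether the response to stimulation differed between genotypes, called none of the 9 members, with 1 of them at an unadjusted p below 0.05, against 6.01% of all genes passing (1.13% higher and 4.88% lower), and DESeq2 also called 0. Nlrc5 had the largest estimate (log2 difference 0.46, 95% interval 0.02 to 0.90, adjusted p = 0.285, edgeR), which passed without Ctsl fl/fl mouse 6 (0.79, adjusted p = 0.0407). The H2-Q7 interval, -0.59 to 1.01, was the widest.

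The remaining comparisons set stimulated against unstimulated cells within each genotype. Stimulated mice were other mice, with a date of their own, so stimulation, culture and date cannot be told apart. Of 6 erythroid markers 5 were tested, and all 5 fell in both genotypes (medians -2.56 and -3.46). Their part in the class I values was not tested. In both genotypes 3 members rose (H2-K1, H2-D1 and B2m) and 4 fell (Tap1, Tap2, Tapbp and Nlrc5), while H2-Q7 and H2-T23 did not pass. In Ctsl fl/fl cells 67.7% of all genes passed (32.9% rose and 34.8% fell), and in CtslΔTEC cells 71.2% (32.9% rose and 38.2% fell), so that passing was the common case. The same 7 members did not overlap between conditions, as did 69.4% of all genes in Ctsl fl/fl (33.4% higher and 36% lower) and 72.1% in CtslΔTEC cells (33.8% higher and 38.3% lower). The 2 comparisons share no library, but both share the date of their stimulated mice.

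H2-K1 rose 2.24 times in Ctsl fl/fl (log2 fold change 1.17, standard error 0.12, adjusted p = 8.14e-07, edgeR) and 2.38 times in CtslΔTEC cells (1.25, standard error 0.12, adjusted p = 1.7e-07, edgeR). H2-D1 rose less. It measured 874 and 1070.0 TPM in stimulated Ctsl fl/fl and 1110.2 and 1152 TPM in stimulated CtslΔTEC mice, 1.47 and 1.34 times the unstimulated level in the fit. H2-K1 and H2-D1 therefore drew apart: the ratio of their TPM was 2.87 and 3.16 in the stimulated Ctsl fl/fl and 3.59 and 3.86 in the stimulated CtslΔTEC mice, against 1.75 to 2.03 in all 9 unstimulated mice. On protein-coding transcripts they also drew apart, but at smaller ratios. H2-K1 then stood at a mean of 1975 and H2-D1 at 952 TPM in stimulated Ctsl fl/fl cells, and at 2509 and 1099 TPM in stimulated CtslΔTEC cells. Unstimulated means were 923 and 701 TPM in Ctsl fl/fl and 1181 and 924 TPM in CtslΔTEC cells. B2m rose 1.39 times in Ctsl fl/fl (adjusted p = 0.00162, edgeR) and 1.49 times in CtslΔTEC cells (adjusted p = 0.000217, edgeR). Since H2-K1 rose more, B2m per H2-K1 plus H2-D1 stood at 0.438 ± 0.0615 and 0.423 ± 0.0814 after stimulation (SD, n = 2 each).

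Tap1 had the largest change of the 9 genes. It fell from a mean of 100.3 TPM to 27.4 and 31.3 TPM in Ctsl fl/fl mice 5 and 6 and from 119 TPM to 32.1 and 38.0 TPM in CtslΔTEC mice 6 and 7. The log2 fold changes were -1.69 and -1.71, with standard errors of 0.11 in both. Every stimulated mouse was far below every unstimulated one, and H2-K1 TPM per Tap1 TPM went from 11.6 to 16.6 in unstimulated to 91.7 to 124 in stimulated mice.

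Tap2 fell to 97.9 and 114 TPM in Ctsl fl/fl and 94.4 and 90.2 TPM in CtslΔTEC mice (log2 fold changes -0.65 and -0.88, standard error 0.11 in both). Tapbp fell less, with log2 fold changes of -0.39 (standard error 0.12) and -0.66 (standard error 0.11). Nlrc5 was 0.463 times its unstimulated level in Ctsl fl/fl (log2 fold change -1.11, standard error 0.16, adjusted p = 1.85e-05, edgeR) and 0.637 times in CtslΔTEC cells (-0.65, standard error 0.15, adjusted p = 0.00123, edgeR). All 4 fell in both genotypes, where H2-K1, H2-D1 and B2m rose and H2-Q7 and H2-T23 did not pass.

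H2-Q7 did not pass, with log2 fold changes of 0.11 (95% interval -0.47 to 0.69) and 0.31 (-0.23 to 0.86), but passed in CtslΔTEC cells without unstimulated mouse 5 (0.48, adjusted p = 0.0785, edgeR). Over all 8 H2-Q genes, counts rose by 1.09 on the log2 scale in Ctsl fl/fl (adjusted p = 0.000133) and 1.31 in CtslΔTEC cells (adjusted p = 1.08e-05, edgeR). H2-Q4 went from 115 to 274 TPM and from 182 to 501 TPM, with log2 fold changes of 1.39 and 1.66, and H2-Q6, at group means of 5.15 TPM or less, of 2.26 and 1.84. Because H2-Q6 and H2-Q7 share words, a rise of H2-Q7 counted under H2-Q6 cannot be told apart from one of H2-Q6. H2-T23 stood at 364 and 420.5 TPM in Ctsl fl/fl and 312 and 327 TPM in CtslΔTEC mice, and its log2 fold changes of 0.12 (-0.07 to 0.32) and -0.06 (-0.25 to 0.13) did not pass. Scaled by library totals alone, which moved the median of all genes by -0.14, the CtslΔTEC value was -0.20 (adjusted p = 0.0641, edgeR). With the H2-T genes summed, counts were lower on stimulation in CtslΔTEC cells (log2 fold change -0.25, adjusted p = 0.0231) and the Ctsl fl/fl value of -0.11 did not pass (adjusted p = 0.319, edgeR). H2-T24, a neighbour, fell from 66.1 to 25.3 and from 57.9 to 19.6 TPM.

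**Figure D4:**
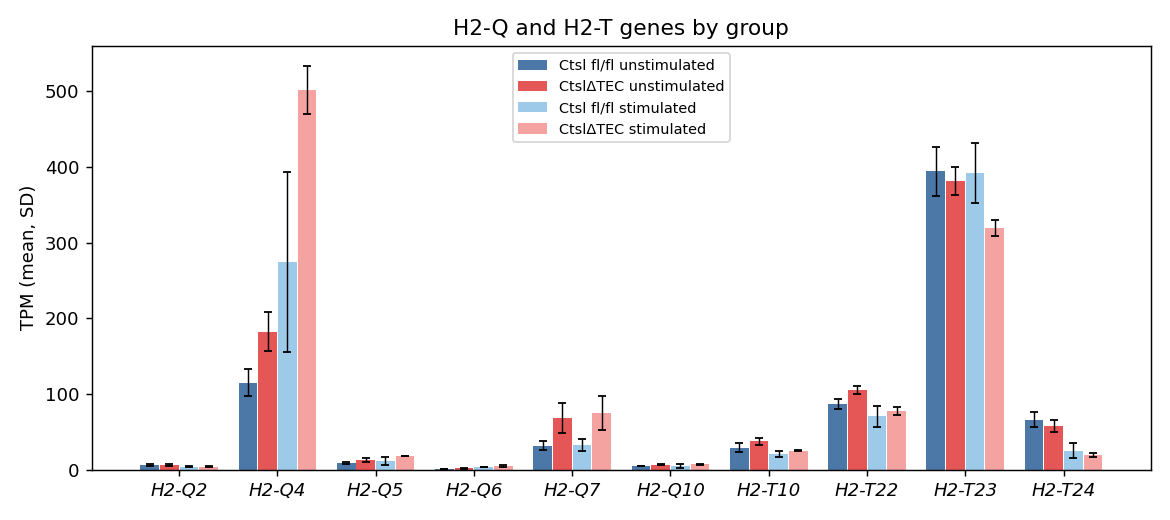
Mean TPM (bars from 0) with SD of the H2-Q and H2-T genes with a group mean of at least 1 TPM, by group (n = 4, 5, 2 and 2). H2-Q4 rises to 274 and 501 TPM on stimulation, H2-Q7 differs by genotype with little change on stimulation, and H2-T23 lies between 319 and 394 TPM throughout.

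Other genes of the pathway were followed as lists. Over all genes 6.42% were higher and 8.36% lower in unstimulated CtslΔTEC cells, and 2.77% and 10.6% in stimulated ones. On stimulation 32.9% of all genes rose and 34.8% fell in Ctsl fl/fl, and 32.9% and 38.2% in CtslΔTEC cells. The list counts below stand beside these shares. Of 25 other class I heavy-chain genes, 15 were tested in unstimulated cells, where 8 were higher and 1 lower in CtslΔTEC, with a median log2 fold change of 0.23 against 0.01 over all genes. Among them were H2-Q4 (0.64), H2-Q5 (0.58) and Cd1d1 (0.38), which presents lipids and is also a DP marker, and the exception was Fcgrt (-0.80), the neonatal Fc receptor. In stimulated cells 1 of 16 was higher (H2-Q4, 0.91) and 2 were lower (Mr1, -0.9997 and Cd1d1, -0.65), with a median of 0.04. On stimulation 4 of 16 rose and 10 fell in each genotype. The log2 fold changes were -2.44 and -3.47 for Cd1d1, -2.74 and -3.86 for Mr1, which presents vitamin B metabolites, and -3.33 and -2.52 for Fcgrt.

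The list of other loading, folding and trimming genes had 14 members. In unstimulated CtslΔTEC cells Tapbpl, a tapasin relative, was higher (log2 fold change 0.22) and Abcb9 (-0.79), a lysosomal peptide transporter related to TAP, and Pdia3 (-0.40), the disulfide isomerase ERp57 of the loading complex, were lower. In stimulated cells Abcb9 (-1.56) was lower and none was higher. On stimulation 8 rose in each genotype, whereas 2 fell in Ctsl fl/fl and 4 in CtslΔTEC cells, where 67.7% and 71.2% of all genes passed. The chaperone gene Hspa5 rose by 1.79 and 1.87 and the translocon gene Sec61a1 by 1.02 and 0.94 on the log2 scale. Pdia3 fell, with log2 fold changes of -0.83 and -0.73.

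The proteasome genes also went in both directions. On stimulation all 3 immunoproteasome subunits, which cut peptides for class I from proteins, fell in both genotypes, with log2 fold changes of -2.20 and -2.30 for Psmb9, -1.09 and -1.79 for Psmb8 and -1.17 and -2.26 for Psmb10. In Ctsl fl/fl 7 others of the 11 tested rose and in CtslΔTEC all 8 others, Psme3 by 1.96 and 2.08. Psmb9, part of whose words (6.23% of those of Tap1) are shared with Tap1, went from 66.3 to 14.2 and from 80.2 to 16.1 TPM. In unstimulated cells the genotypes differed little, with Psmb5 (-0.33) and Psme2 (-0.23) lower in CtslΔTEC and none higher. In stimulated cells Psmb10 (-1.24) and Psmb8 (-0.63) were lower in CtslΔTEC and none was higher. Among 7 cytosolic peptidases tested, Lap3 rose by 2.88 and 3.32 and Thop1 by 3.28 and 3.57, and 4 rose in each genotype. In Ctsl fl/fl 1 fell (Npepps, -0.46) and in CtslΔTEC cells 2 fell.

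Of 27 regulators tested, 8 rose and 15 fell on stimulation in Ctsl fl/fl and 11 rose and 14 fell in CtslΔTEC cells. Between the genotypes 2 were higher and 1 lower in CtslΔTEC before stimulation, and 3 higher and 3 lower after it. The NF-κB genes Nfkb2 (4.62 and 4.47), Nfkb1 (3.42 and 3.78) and Relb (4.31 and 4.53) and the interferon regulatory factor gene Irf8 (4.41 and 5.61) rose most clearly on the log2 scale. Of 26 interferon-stimulated genes 24 fell and 1 rose in each genotype, with medians of -2.62 and -3.00 against 0.01 and -0.06 over all genes. Dtx3l (-2.76 and -3.32), Igtp (-2.33 and -3.07) and Parp14 (-2.83 and -3.27) were the lowest in p in both. In unstimulated cells this list gave 2 higher (Ifit2, 0.44 and Igtp, 0.25) and 2 lower (Samhd1, -1.37 and Trim25, -0.30) in CtslΔTEC. Between the genotypes after stimulation none was higher and 7 were lower in CtslΔTEC (median -0.29 against -0.05 over all genes), led by Samhd1 (-1.66) and Ifi47 (-0.77). Interferon receptor and signalling genes gave Socs3 (1.88) higher and Ifnar1 (-0.25) lower of 12 tested in unstimulated cells, and Socs3 (1.76) higher and Ifngr2 (-0.59) and Ifnar1 (-0.33) lower of 13 tested in stimulated cells.

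**Figure D5:**
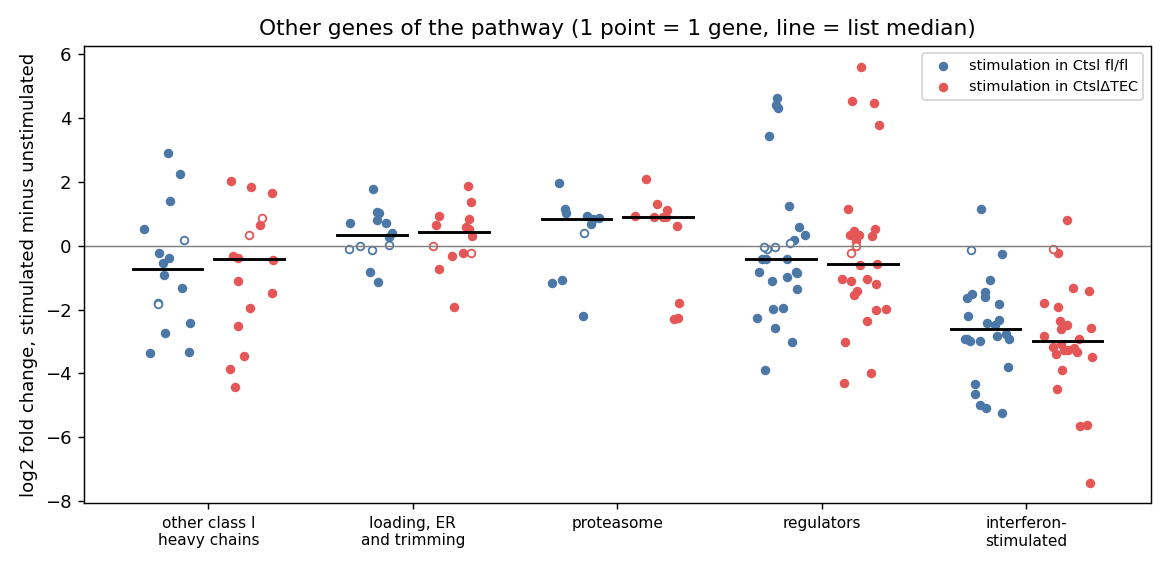
Log2 fold change on stimulation of each tested gene of 5 lists in Ctsl fl/fl and CtslΔTEC cells, filled where the adjusted p was below 0.1, with a line at the list median. Interferon-stimulated genes lie mostly below 0 (medians -2.62 and -3.00), and the proteasome list separates into 3 genes below 0 and the rest above.

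Class II genes summed to 162 to 193 TPM in unstimulated CtslΔTEC and 163 to 191 TPM in unstimulated Ctsl fl/fl cells. After stimulation the sums were 90.6 to 95.7 TPM in CtslΔTEC and 106.2 to 109 TPM in Ctsl fl/fl cells. These did not overlap, but nor did the values of 49.8% of all genes in this comparison. Of 10 class II genes tested, 1 was lower in stimulated CtslΔTEC cells (H2-Oa, log2 fold change -4.15). H2-DMa was the one class II gene higher in unstimulated CtslΔTEC cells (log2 fold change 0.49). Genes known to be high late in maturation fell on stimulation in all 14 cases in each genotype, and of 12 genes known to be high early, which include activation genes such as Nr4a3 and Cd69, 10 rose and 1 fell.

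To place the members among all genes, the 3 genes with the most similar profile over the 13 libraries were taken for each, by the root mean square difference of centred log2 CPM among 7370 genes. H2-K1 was nearest to Gnptg (0.0997), H2-D1 to Pxn (0.108), B2m to Zfp445 (0.106), H2-T23 to Dpp3 (0.0381), Tap1 to Znrf1 (0.117), Tap2 to Smarcd2 (0.0702), Tapbp to Asb8 (0.0821) and Nlrc5 to Gm10521 (0.155). H2-Q7 had no close match. Its nearest, Ccr9 (0.292), encodes a chemokine receptor of thymocytes and measured 39.1 ± 5.77 TPM in Ctsl fl/fl and 79.0 ± 7.12 TPM in CtslΔTEC unstimulated cells, and Rgcc (0.388) and Usp11 (0.400) followed. Among the members themselves Tap2 and Tapbp were the closest pair (0.158), followed by H2-D1 and B2m (0.215).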

How the data were processed

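RNA of M2 CD4SP thymocytes was sequenced from 13 mice, 1 library each. The authors estimated transcript abundance with kallisto 0.48, and the deposited values are estimated counts, which are not normalized, and TPM per transcript. The labels name polyA RNA, the study's methods rRNA depletion. Here both were summed to genes through GENCODE M21 (116397 of 117497 transcripts, with at most 0.461% of counts left out) and counts were rounded. edgeR 4.0.16 in R 4.3.3 gave the tests (TMM, filterByExpr, quasi-likelihood, Benjamini-Hochberg over all genes tested, threshold 0.1), on 9 libraries for unstimulated genotype and in a 4-group model of 13 libraries otherwise. DESeq2 1.42.0, other scalings and filters, transcript classes, covariates and fits without 1 mouse were alternatives. Standard errors were derived from F. log2 CPM used a prior count of 2. Scripts were tested on simulated data. The members and lists were chosen with earlier results of these data known. The text names the 9 members, Ctsl, Foxn1 and Cd4 as checks, the genes of smallest p in each list (at most 4 per comparison, past the threshold, mean log2 CPM of 1 or more), and the 3 genes most like each member (mean log2 CPM of 4 or more). H2-Q6, H2-T24, Rag2, Ptcra, Cd14, Clec9a and Siglech were named after their values were seen. Results of 2 genes are not reported here. Each library is 1 mouse. Mouse numbers come from the labels.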

Additional observations from a re-analysis of the deposited data

Results flagged for a closer look

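Tap1 measured 143 TPM in unstimulated CtslΔTEC mouse 1, far from the other 4 mice of the group (105.997 to 116 TPM). This was 1 of 18 sets of values tested for such a gap, and about 1 in 20 is flagged by chance. Without this mouse Tap1 no longer passed.

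None of the 9 members passed the interaction test (0 by edgeR at an adjusted p below 0.1, 1 at an unadjusted p below 0.05, Nlrc5, and 0 by DESeq2), but some genes of the lists around them did. A negative value means a lower log2 response in CtslΔTEC. Among class I-like and class II genes the differences were -1.12 for Mr1, -1.03 for Cd1d1 and -4.53 for the class II gene H2-Oa, whose stimulated CtslΔTEC level was near 0. In peptide generation and transport they were -1.09 for Psmb10, -0.70 for Psmb8 and -0.77 for Abcb9. Interferon-related genes gave -0.96 for Ifi47, -0.96 for Gbp7, -0.74 for Igtp, -0.56 for Dtx3l, -0.57 for Ifngr2, 0.47 for Ptpn2 and 1.20 for Irf8. Maturation genes gave -1.21 for Bcl2l11, -1.02 for Slfn2, -0.60 for Itgb7, 0.87 for Itm2a and 0.54 for Rasgrp1. These rest on 2 stimulated mice per genotype.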

How the results depend on the processing

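In unstimulated cells 5 members passed. The count was 3 at a threshold of 0.05, 0 with the Y-linked covariate and 2 to 5 when 1 mouse was left out. With the mouse number as a replicate block it was 1 (H2-Q7), with an adjusted p of 0.141 for H2-K1, 0.156 for H2-D1, 0.121 for B2m and 0.311 for Tap1 (edgeR). Deviations of same-numbered mice correlated at -0.16, 0.35, -0.10 and -0.14. So few values cannot decide whether the numbers pair the mice. In stimulated cells 4 passed, 2 at a threshold of 0.05, 2 with the 4 stimulated libraries alone and 0 to 4 with 1 mouse left out. For the interaction the last range was 0 to 1. Over all genes, the block moved the unstimulated count from 1943 to 1051, the stimulated libraries alone moved 1898 to 1127, and the stricter threshold moved 856 to 471 for the interaction. Without 1 mouse these counts were 1534 to 2343, 945 to 2235 and 334 to 1227, with 945 and 334 without stimulated CtslΔTEC mouse 6 and 966 and 340 without stimulated Ctsl fl/fl mouse 5. With 10 counts in every library 36.6% of stimulated calls (646 of 1765) were higher, against 20.8% (395 of 1898), and 29.3% of interaction calls, against 18.8% (29.4% with DESeq2). Library totals alone as scaling put 56.8% of unstimulated calls higher, against 43.4%.

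No call changed direction. Values that changed sign had not passed: unstimulated Tapbp (0.0217 with library totals, 0.00738 with protein-coding transcripts, -0.0732 to 0.0279 without 1 mouse) and Tap2 (-0.0511 with protein-coding transcripts, -0.0788 with the Y-linked covariate, -0.00519 with date, -0.0431 to 0.0584 without 1 mouse). In the interaction these were Tap1 (0.0206 with DESeq2, 0.0125 with upper-quartile and 0.0224 with RLE factors, 0.0429 with 10 counts in every library, 0.0452 with effective lengths, 0.0772 with the Y-linked covariate, -0.13 to 0.0764 without 1 mouse), B2m (-0.0351 with the covariate, -0.0327 to 0.20 without 1 mouse), H2-K1 (-0.0092 to 0.17) and H2-Q7 (-0.15 to 0.53). On stimulation they were H2-T23 (-0.11 in Ctsl fl/fl with H2-T genes summed, 0.0167 in CtslΔTEC with 10 counts in every library) and H2-Q7 (-0.24 to 0.33 in Ctsl fl/fl and -0.0589 to 0.58 in CtslΔTEC without 1 mouse). In TPM in place of CPM, the log2 ratios of group means on stimulation moved to -0.00591 for H2-T23, 0.37 for B2m, -0.78 for Tap2 and -0.50 for Tapbp in Ctsl fl/fl, and to 0.24 for H2-D1, -0.26 for H2-T23, 0.40 for B2m, -1.03 for Tap2, -0.85 for Tapbp and -0.87 for Nlrc5 in CtslΔTEC cells. The cause was not tested. Where 1 stimulated mouse was left, it was assumed to vary like the other groups. The stimulated comparisons rest on 2 mice per genotype and 8085463 counts in the shallowest library, which limits their precision.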
